A study of Rattus norvegicus with 4 samples.

Results

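Cyclic AMP is made from ATP by adenylyl cyclases, is broken down by phosphodiesterases and acts largely through cAMP-dependent protein kinase (PKA). The genes described here encode these enzymes in the rat hippocampus after injection of kainic acid (KA). They were all genes of the array whose single annotated symbol was that of an adenylyl cyclase (Adcy), of a phosphodiesterase of subtype a to d (Pde) or of a PKA catalytic or regulatory subunit (Prkaca, Prkacb, Prkar). That rule found 34 genes, measured by 50 probe sets, among the 14217 named genes of the array: 8 cyclases, 20 phosphodiesterases and 6 PKA subunits. Sprague-Dawley rats had received KA, KA with the peptide NAP (at a concentration written as 10-13M in the series' design text), NAP alone, or PBS, the vehicle, into the hippocampus, and CA3 tissue was taken 24 h afterwards. KA is an excitotoxin that activates kainate-type glutamate receptors, and NAP is a small peptide derived from the protein ADNP. Each of the 4 groups had 1 Affymetrix array. Age and sex are not in the labels, nor is it stated if RNA of several animals was pooled for an array. No difference below therefore has a replicate error or a test, and a difference of at least 2-fold between arrays is only a fixed rule of size.

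Cyclases of the membrane are driven by receptors coupled to the stimulatory G protein, and some of them also by calcium with calmodulin, which ties cAMP to neuronal firing. Phosphodiesterases differ in substrate: some families cut cAMP only, some cut cAMP and cGMP, and some cut cGMP only. PKA is held inactive by its regulatory subunits until cAMP binds them. Type I and type II regulatory subunits differ in where they sit, since type II subunits are mostly tethered by A-kinase anchoring proteins. In the hippocampus the pathway is known for its part in synaptic plasticity and in transcription through the factor CREB.

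Promoters are shown for 4 of the members that had a RefSeq window, as 2 pairs. The PKA catalytic subunit genes Prkaca and Prkacb had lower intensities on the KA+NAP array than on the KA and NAP arrays on every probe set. The phosphodiesterase genes Pde2a and Pde10a were lower on both KA arrays than on both arrays without KA. Other members that differed between arrays, such as Prkar2a and Adcy8, had no window and could not be shown. Each window runs from 250 bases before to 50 bases after the most upstream annotated start (RefSeq, GRCr8), and is written 5′ to 3′ on the strand of the gene. The windows are chr19:41083140-41083439 (minus strand), chr2:238386266-238386565 (minus strand), chr1:165235373-165235672 (plus strand) and chr1:54765619-54765918 (minus strand). Capitals mark the letters TGACG, the core of the cAMP response element, on either strand.
Prkaca: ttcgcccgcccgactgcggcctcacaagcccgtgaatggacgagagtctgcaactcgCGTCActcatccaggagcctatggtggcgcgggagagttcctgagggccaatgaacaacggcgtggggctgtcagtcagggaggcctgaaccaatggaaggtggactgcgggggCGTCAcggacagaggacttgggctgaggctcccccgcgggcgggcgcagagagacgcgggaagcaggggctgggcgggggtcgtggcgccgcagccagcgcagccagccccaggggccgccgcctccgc
Prkacb: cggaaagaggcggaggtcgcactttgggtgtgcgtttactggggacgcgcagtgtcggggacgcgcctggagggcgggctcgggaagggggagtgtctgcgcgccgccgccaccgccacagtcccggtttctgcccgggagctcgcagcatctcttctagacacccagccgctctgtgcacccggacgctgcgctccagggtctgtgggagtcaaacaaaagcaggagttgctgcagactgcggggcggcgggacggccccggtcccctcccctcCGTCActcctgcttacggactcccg
Pde2a: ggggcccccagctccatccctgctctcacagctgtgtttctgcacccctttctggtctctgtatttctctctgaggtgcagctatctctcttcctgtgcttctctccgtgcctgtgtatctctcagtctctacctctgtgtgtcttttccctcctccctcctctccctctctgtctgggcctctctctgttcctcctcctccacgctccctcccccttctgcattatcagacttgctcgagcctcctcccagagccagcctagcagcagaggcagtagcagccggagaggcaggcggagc
Pde10a: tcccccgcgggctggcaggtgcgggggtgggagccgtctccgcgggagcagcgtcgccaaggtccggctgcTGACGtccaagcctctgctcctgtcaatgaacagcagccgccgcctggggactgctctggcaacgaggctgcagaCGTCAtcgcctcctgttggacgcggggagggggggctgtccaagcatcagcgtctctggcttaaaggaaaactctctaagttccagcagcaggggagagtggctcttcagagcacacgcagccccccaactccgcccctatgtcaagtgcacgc
The Prkaca window held 2 such cores, with first bases 193 and 79 bases before the start, and the Prkacb window held 1, at base 26 of the transcript. The Pde10a window held 2, at 179 and 104 bases before the start, and the Pde2a window held none. RefSeq windows were found for 23 of the 34 members, of which 6 had several annotated starts, giving 34 windows. The core TGACG occurred in 9 of these windows, from 7 members, and in 21.2% of all 33469 windows of the same length. The core contains CG, and the median share of G and C bases was 62% in the members' windows, against 51.7% over all windows. These shares of windows with the core are therefore not for sequences of like composition. The full element TGACGTCA occurred in 0 of the 34 and in 1.83% of all windows. The AP-1 element TGANTCA, which Fos and Jun proteins bind, occurred in the windows of Pde4b and Pde6b, 2 of 34, and in 7.33% of all windows. The core TGACG lies within the full element, and the AP-1 letters share only their TGA start and TCA end with it. Members without a window were Adcy3, Adcy6, Adcy8, Pde1b, Pde3b, Pde4c, Pde6d, Pde7a, Pde7b, Pde9a and Prkar2a.

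The values are MAS5 intensities, a probe set's brightness on a linear scale, and each gene was represented by the probe set with the highest mean. Intensities of different probe sets are on different scales, so levels are compared between arrays and not between genes. A gene counted as measurable when its mean intensity was above 62.75, the median of all probe sets other than controls. By that limit 23 members were measurable and 11 were dim. The nearest measurable members were Pde4a and Adcy8, with means of 90.25 and 90.75, and the nearest dim members were Pde6b and Adcy4, with means of 31.25 and 25.5. Of the 23, 22 were above the limit on every array, and Adcy8 was below it on the KA+NAP array. Differences are between values of log2(intensity + 10), where a difference of 1 is 2-fold.

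Both KA arrays carried less summed signal of pan-neuronal and CA3 markers than both arrays without KA, and these values stand beside every result that follows. All 6 listed CA3 pyramidal markers were measurable, with a summed intensity of 4343 on the KA array and 3550 on the KA+NAP array, against 5655 on the NAP array and 6712 on the PBS array. The 9 pan-neuronal markers summed to 24593 and 23747 after KA and KA+NAP, against 32385 and 33855 after NAP and PBS. The design text names CA3 and the samples' treatment protocol names hippocampi. The signal was not that of CA3 markers alone, since 4 of 4 CA1 markers on the array were measurable and summed to 552, 1964, 1250 and 2337 on the KA, KA+NAP, NAP and PBS arrays. In the same order of arrays, the 10 microglia and macrophage markers summed to 1795, 3589, 2805 and 2920. The 5 infiltrating myeloid markers summed to 3177, 5951, 3622 and 1480, lowest on the PBS array. The remaining sums were, for the 4 dentate granule cell markers on the array, 2684, 1982, 3418 and 2706, for the 5 choroid plexus and ependymal markers, 1709, 1053, 1755 and 1545, and for the 2 blood markers on the array, 196, 1583, 1450 and 8. The sums were 4771, 4473, 5021 and 4998 for GABAergic interneuron markers, 23762, 25745, 27663 and 25801 for astrocyte markers and 15821, 17363, 17578 and 17713 for oligodendrocyte markers. They were 1015, 1474, 1500 and 1092 for endothelial markers, 1372, 2176, 725 and 474 for smooth muscle and pericyte markers, 771, 1122, 1784 and 941 for meningeal fibroblast markers and 1736, 549, 472 and 498 for striatal markers. No marker of these lists was at 0. Each sum follows its brightest markers. Tagln made up most of the smooth muscle and pericyte sum on both KA arrays, at 1048 and 1832, against 308 and 136 on the NAP and PBS arrays. Of the 4 measurable markers of that list, 2 were higher on the KA array than on the PBS array and 2 lower. Lyz2 made up most of the infiltrating myeloid sum, at 2757, 5292, 3483 and 1410. All 4 measurable myeloid markers were higher on the KA array than on the PBS array. In such bulk tissue, fewer cells of a type and less RNA per cell cannot be told apart, and the part of these markers in the members' differences was not tested.

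In KA minus PBS, 1 of 23 measurable members, Pde1a, was at least 2-fold higher, where 4.91% of all 9489 measurable genes were, and 0 were at least 2-fold lower, where 2.39% of all genes were. With NAP on both arrays, KA+NAP minus NAP, 0 were at least 2-fold higher (5.66% of all genes) and 2, Adcy8 and Prkaca, were at least 2-fold lower (2.41% of all genes). Adding the peptide to KA, KA+NAP minus KA, left 0 at least 2-fold higher (1.52% of all genes), and Adcy8 was the 1 member at least 2-fold lower (0.601% of all genes). In NAP minus PBS, 0 members were at least 2-fold higher (1.05% of all genes) or lower (0.242% of all genes). In KA+NAP minus PBS, 0 were at least 2-fold higher (7.41% of all genes) and Pde2a was the 1 member at least 2-fold lower (2.11% of all genes). Counting either direction, the shares of all genes at 2-fold were 7.3% in KA minus PBS, 8.07% in KA+NAP minus NAP, 2.12% in KA+NAP minus KA, 1.3% in NAP minus PBS and 9.52% in KA+NAP minus PBS. One member is 4.35% of the 23, so each of these member counts is within 2 genes of its share and is no result about the family. Over the 5 comparisons, 4 members (Adcy8, Pde1a, Pde2a and Prkaca) reached 2-fold at least once, against 14% of all genes.

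At 1.5-fold, 6 of 23 members were apart in KA minus PBS, against 22% of all genes. Pde1a, Prkar2a and Prkar2b were the 3 higher ones (12.4% of all genes), and Adcy2, Pde2a and Pde4a the 3 lower ones (9.56% of all genes). Likewise 6 were apart in KA+NAP minus NAP, against 23.2% of all genes. Pde8a and Prkar2a were the 2 higher ones (13.8% of all genes), and Adcy8, Pde1b, Pde2a and Prkaca the 4 lower ones (9.38% of all genes). KA+NAP minus PBS also had 6, against 25.4% of all genes: Pde1a, Pde9a and Prkar2a were higher (16% of all genes), and Adcy8, Pde2a and Pde10a lower (9.39% of all genes). In the first 4 comparisons together 10 members reached 1.5-fold, against 36.2% of all genes.

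The median difference of the 23 members was below 0 in each comparison and close to it. It was -0.06 in KA minus PBS (all genes 0.02), -0.18 in KA+NAP minus NAP (all genes 0.03), -0.12 in KA+NAP minus KA (all genes 0.03), -0.01 in NAP minus PBS (all genes 0.02) and -0.19 in KA+NAP minus PBS (all genes 0.03). Their median size without regard to sign was 0.32 in KA minus PBS, against 0.29 over all genes, and 0.25 in KA+NAP minus NAP, against 0.31 over all genes. KA minus PBS and KA+NAP minus NAP share no array. Pearson's r between them was 0.23 over the 23 members and 0.70 over all 9489 genes, and Spearman's rho was 0.24 and 0.61. The sign was the same in both for 15 of the 23, against 70.9% of all genes. Genes are not independent replicates, and the points of each set share the same 4 arrays. The other comparisons share arrays with one another, so their values are given side by side only.

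**Figure D1:**
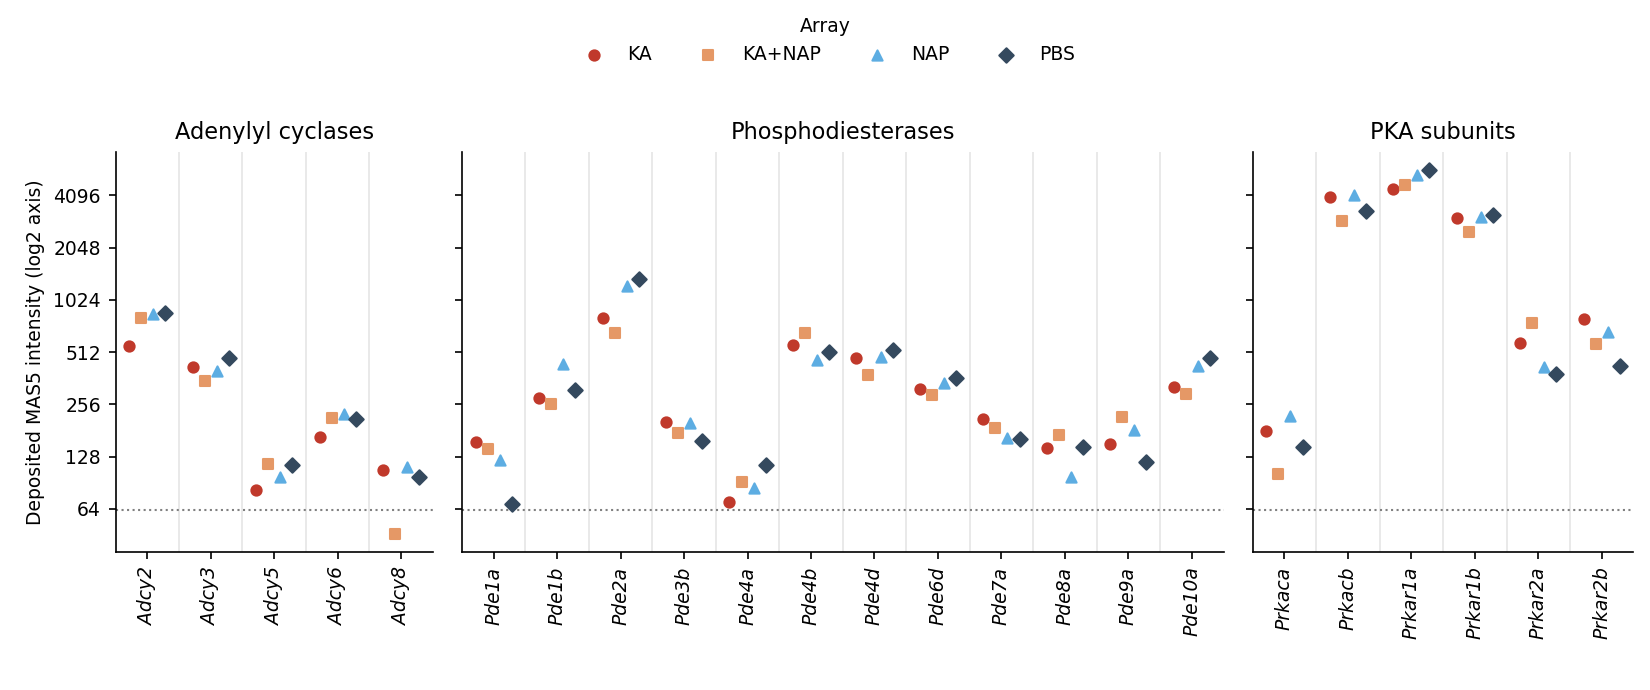
Deposited intensity (log2 axis) of the 23 measurable members on the KA, KA+NAP, NAP and PBS arrays, 1 point per array; the dotted line is the limit of 62.75 and heights are not comparable between genes. Pde2a was at 810 and 658 on the KA and KA+NAP arrays, against 1233 and 1357 on the NAP and PBS arrays, and Adcy8 dropped under the limit, to 46, on the KA+NAP array.

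Among the cyclases, 5 of 8 were measurable, and 4 of the 5 had lower values on the KA array than on the PBS array, as had 4482 of all 9489 genes. Adcy2, a cyclase stimulated by G protein beta-gamma subunits together with the stimulatory alpha subunit, was at 557 on the KA array and 809 on the KA+NAP array, against 851 on the NAP array and 859 on the PBS array. The KA array alone stood low for this gene. The differences were -0.62 in KA minus PBS and -0.07 in KA+NAP minus NAP, and the KA+NAP array was 0.53 above the KA array. Adcy5 and Adcy6, cyclases that calcium inhibits, were also lowest on the KA array. Adcy5 had 82 on the KA array and 116 on the KA+NAP array, against 98 on the NAP array and 115 on the PBS array. Adcy6 had 167 and 215 on these KA arrays, against 226 after NAP and 211 after PBS, and its dim second probe set had 13 and 20, against 21 and 21. The KA+NAP array was thus above the KA array for Adcy2, Adcy5 and Adcy6, by 0.53, 0.45 and 0.35. The summed CA1, microglia and macrophage, astrocyte, oligodendrocyte, endothelial and meningeal fibroblast markers were likewise lowest on the KA array and higher on the KA+NAP array. Single markers were mixed. In KA minus PBS, 0 of 4 measurable CA1, 1 of 4 oligodendrocyte and 2 of 7 astrocyte markers were above 0. So were 5 of 9 microglia and macrophage, 2 of 3 endothelial and 1 of 5 meningeal fibroblast markers. The sums of the other marker lists were lowest on another array. The part of these markers in the result was not tested.

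Adcy8, a cyclase stimulated by calcium and calmodulin, went the other way. It was at 107 on the KA array and 46 on the KA+NAP array, against 112 on the NAP array and 98 on the PBS array. The KA+NAP array alone stood low, by 1.12 below NAP, by 1.06 below KA and by 0.95 below PBS. The gene has 1 probe set, and with a pseudocount of 50 in place of 10 the difference from NAP was -0.75. Adcy3, also tied to calcium and calmodulin and known from olfactory neurons and primary cilia, had 418 after KA and 351 after KA+NAP, against 398 after NAP and 476 after PBS, so the arrays with and without KA overlapped. The dim cyclases were Adcy4, with 32, 41, 11 and 18 on the KA, KA+NAP, NAP and PBS arrays, Adcy9, with 15, 10, 16 and 35, and the soluble cyclase Adcy10, with 5, 17, 6 and 16. Adcy1 and Adcy7 were not analysed here.

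Of the phosphodiesterases, 12 of 20 were measurable. Among the dual-specificity enzymes, which cut cAMP and cGMP, Pde2a and Pde10a were lower on both KA arrays. Pde2a, an enzyme that cGMP stimulates to break down cAMP, was at 810 on the KA array and 658 on the KA+NAP array, against 1233 on the NAP array and 1357 on the PBS array. Both KA arrays lay below both others, by -0.74 in KA minus PBS, -0.90 in KA+NAP minus NAP and -1.03 in KA+NAP minus PBS. With a pseudocount of 50 the last value was -0.99. Pde10a, best known from striatal medium spiny neurons, followed the same order. It had 322 after KA and 296 after KA+NAP, against 428 after NAP and 477 after PBS. Its second probe set gave 94 and 68, against 107 and 149. KA minus PBS was -0.55 and -0.61 on the pair of probe sets, and KA+NAP minus NAP was -0.52 and -0.58. Of the 5 striatal markers on the array, Drd2, Adora2a, Gpr6 and Rgs9 were dim, with means of 28.5, 37, 3.75 and 53.75. On the KA, KA+NAP, NAP and PBS arrays Rgs9 had 35, 44, 60 and 76, and Gpr6 had 1, 3, 5 and 6. In the same order Drd2 had 37, 30, 10 and 37, and Adora2a had 28, 43, 39 and 38. The measurable one, the opioid precursor gene Penk, was highest on the KA array. Penk was at 1635 after KA and 429 after KA+NAP, against 358 after NAP and 341 after PBS. Their part in the result was not tested.

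The Pde1 enzymes, which calcium and calmodulin activate, did not move together. Pde1a was at 155 on the KA array and 142 on the KA+NAP array, against 122 on the NAP array and 68 on the PBS array. The PBS array alone stood low, so that KA minus PBS was 1.08, NAP minus PBS 0.76 and KA+NAP minus NAP 0.20. Set against the NAP array instead of PBS, the KA difference of Pde1a was 0.32, under 2-fold, and no member was then 2-fold higher on the KA array. Pde1b had 280 after KA and 258 after KA+NAP, against 440 after NAP and 309 after PBS. Here the NAP array stood high, a dim second probe set gave 4 and 30, against 22 and 4, and the differences were -0.14 in KA minus PBS and -0.75 in KA+NAP minus NAP. Pde3b, an enzyme that cGMP inhibits and that acts in insulin signalling, had 204 after KA and 176 after KA+NAP, against 200 after NAP and 158 after PBS, with overlap between the arrays with and without KA.

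Of the 5 measurable cAMP-specific phosphodiesterases, Pde4b and Pde7a were higher on both KA arrays. Pde4b, an enzyme of neurons and of inflammatory cells, was at 564 after KA and 661 after KA+NAP, against 460 after NAP and 511 after PBS, and its second probe set at 286 and 247, against 212 and 170. Both probe sets were higher on both KA arrays, with KA minus PBS at 0.14 and 0.72 and KA+NAP minus NAP at 0.51 and 0.21. Pde7a, a high-affinity enzyme, had 210 and 188 on the KA and KA+NAP arrays, against 165 and 162 on the NAP and PBS arrays, a further gene without overlap. The brightest Pde4d probe set was at 472 and 376 on the KA and KA+NAP arrays, against 478 and 524 on the NAP and PBS arrays, so that the KA and NAP values were nearly equal. Its dim probe sets gave other orders, one at 56 and 52, against 46 and 41, and one at 39 and 31, against 19 and 39, and the direction of Pde4d is not settled by these arrays. Pde4a was lowest on the KA array, with 70 there and 92 on the KA+NAP array, against 85 on the NAP array and 114 on the PBS array, and KA minus PBS was -0.63. Pde8a, a high-affinity enzyme, had 144 after KA and 170 after KA+NAP, against 98 after NAP and 145 after PBS. The NAP array alone stood low, with KA+NAP minus NAP at 0.74 and KA minus PBS at -0.01. A dim second probe set of Pde8a did not have that order, with 8 and 9, against 11 and 7.

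Among the remaining phosphodiesterases, Pde9a, which cuts cGMP only, had 151 after KA and 218 after KA+NAP, against 182 after NAP and 120 after PBS. The arrays with NAP were the higher ones for this gene, by 0.50 in KA+NAP minus KA and 0.56 in NAP minus PBS. Pde6d, named after the photoreceptor enzyme but acting as a carrier of prenylated proteins, had 315 and 292 on the KA and KA+NAP arrays, against 341 and 362 on the NAP and PBS arrays. The 8 dim phosphodiesterases were Pde1c, Pde3a, Pde4c, Pde5a, Pde6a, Pde6b, Pde7b and Pde8b. Of all 11 dim members, Pde6b, a subunit of the rod photoreceptor enzyme, was the 1 with any value above the limit: 98 on the KA array and 12 on the KA+NAP array, against 3 on the NAP array and 12 on the PBS array. The other 10 lay at 41 or less on every array. Pde4c had 5 and 32 on the KA and KA+NAP arrays, against 4 and 39 on the NAP and PBS arrays, and Pde7b had 1 on each. Pde6c and Pde11a were not analysed here.

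**Figure D2:**
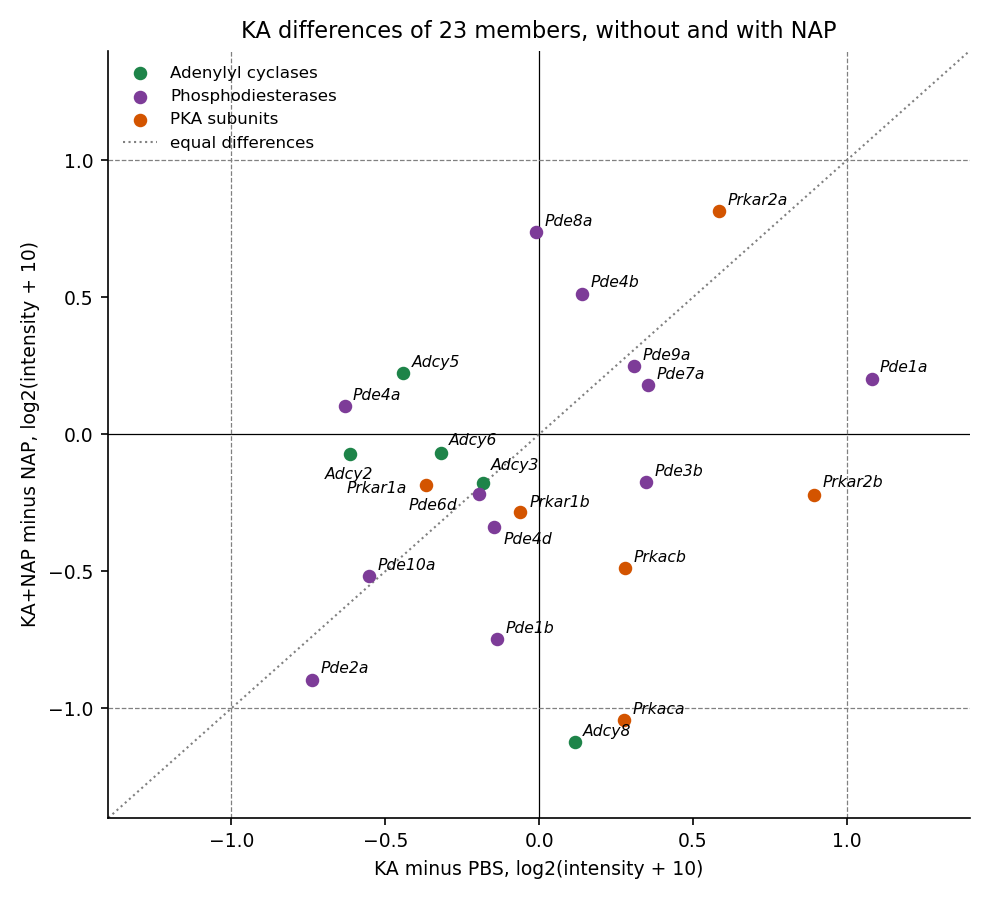
Differences of the 23 measurable members in log2(intensity + 10): KA minus PBS on the horizontal axis and KA+NAP minus NAP on the vertical axis, 1 point per gene, with dashed lines at 2-fold. Pde2a (-0.74 and -0.90) and Prkar2a (0.59 and 0.82) lie near the dotted line of equal differences, while Adcy8 (0.12 and -1.12), Prkaca (0.28 and -1.04) and Prkar2b (0.89 and -0.22) lie far from it.

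All 6 PKA subunits were measurable. The catalytic subunits, which carry the kinase activity, shared an order of arrays in which the KA+NAP array was low. Prkaca was at 179 on the KA array and 102 on the KA+NAP array, against 221 on the NAP array and 146 on the PBS array. The KA+NAP array was lowest, 1.04 below NAP, 0.75 below KA and 0.48 below PBS, while KA minus PBS was 0.28. Prkacb was at 4033 after KA and 2916 after KA+NAP, against 4097 after NAP and 3320 after PBS. KA minus PBS was again 0.28, and KA+NAP minus NAP was -0.49. The second probe set of Prkacb had 638 and 388, against 502 and 384, and its dim other set had 73 and 29, against 118 and 20. On each of the 3 probe sets the KA and NAP arrays were the higher pair, and the KA+NAP and PBS arrays the lower. Of the 2 measurable dentate granule cell markers, Calb1 was at 1901 after KA and 1198 after KA+NAP, against 2171 after NAP and 1727 after PBS, while Prox1 was at 753 and 747, against 1194 and 932. Of the 3 measurable choroid plexus and ependymal markers, Ttr was at 453 and 76, against 359 and 354, and Enpp2 at 1111 and 818, against 1285 and 1079, while Foxj1 was at 86 and 117, against 75 and 74. Calb1, Ttr and Enpp2 were thus lowest on the KA+NAP array, Prox1 was about as low on both KA arrays, and Foxj1 was highest on the KA+NAP array. The summed CA3, pan-neuronal and GABAergic interneuron markers were also lowest on the KA+NAP array, at 3550, 23747 and 4473. In KA+NAP minus KA, 5 of 6 CA3, 5 of 9 pan-neuronal and 2 of 5 interneuron markers were below 0. Their part in the result was not tested.

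Among the regulatory subunits, Prkar2a was higher on both KA arrays. The type II subunit gene Prkar2a was at 580 on the KA array and 752 on the KA+NAP array, against 423 on the NAP array and 383 on the PBS array. Both KA arrays were above both others, by 0.59 in KA minus PBS, 0.82 in KA+NAP minus NAP and 0.96 in KA+NAP minus PBS. Its other 2 probe sets were dim, between 2 and 25, and gave no usable order. Prkar2b, the type II subunit typical of neurons and fat, was at 798 after KA and 569 after KA+NAP, against 665 after NAP and 425 after PBS. The KA array was highest and the PBS array lowest, with 0.89 in KA minus PBS, 0.63 in NAP minus PBS and -0.22 in KA+NAP minus NAP. The type I subunit gene Prkar1b, which is mainly neuronal, had 3025 after KA and 2515 after KA+NAP, against 3061 after NAP and 3161 after PBS. Its KA and NAP values were nearly equal, with -0.06 in KA minus PBS and -0.28 in KA+NAP minus NAP. Prkar1a, the widely expressed type I subunit gene, had 4447 and 4707 on its brightest probe set, against 5350 and 5745. Its other probe sets gave other orders, with 2467 and 3148 against 2295 and 2904, and with 2039 and 1570 against 1414 and 1484. By probe set, KA minus PBS of Prkar1a was -0.37, -0.23 or 0.46, and its direction is not settled by these arrays.

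**Figure D3:**
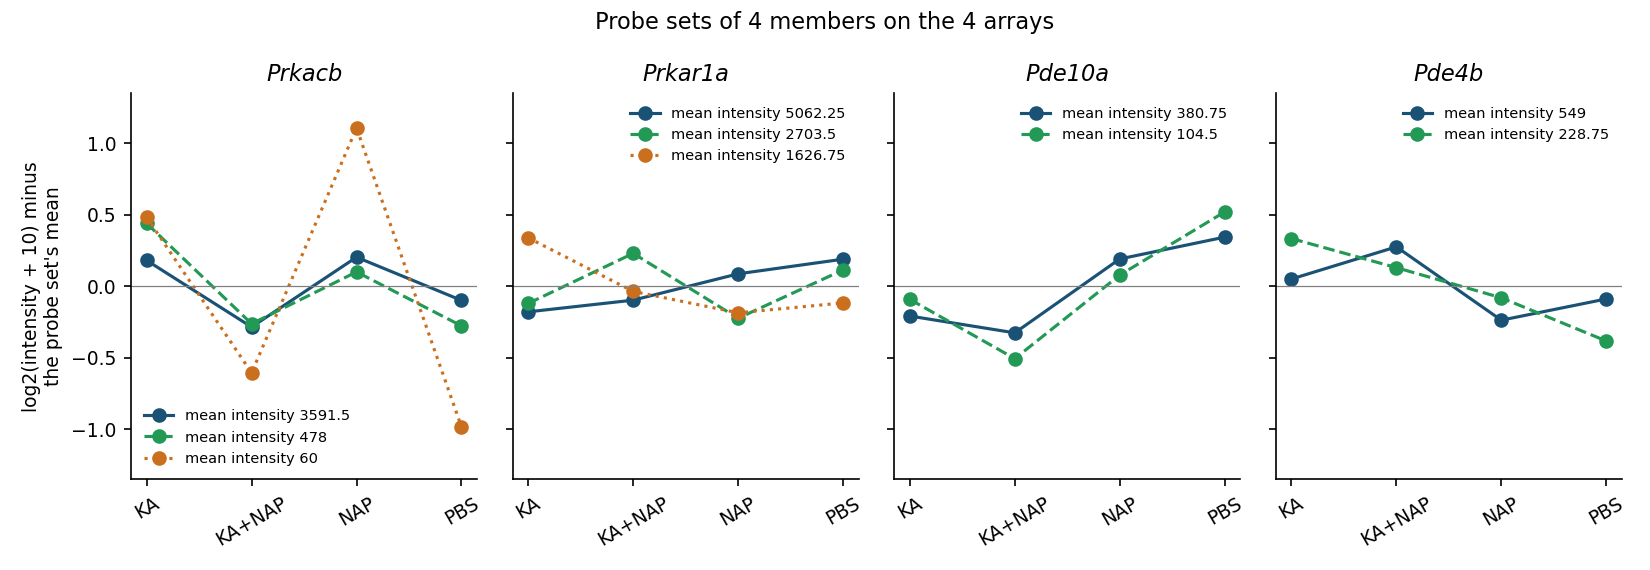
Values of log2(intensity + 10) on the KA, KA+NAP, NAP and PBS arrays, less each probe set's own mean, for the 4 members with several measurable probe sets; each line is 1 probe set with its mean intensity in the key, the dim set of Prkacb included. The lines run alike for Prkacb and Pde10a and cross for Prkar1a.

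Counting arrays, 4 of the 23 members had both KA arrays above both arrays without KA (Pde1a, Pde4b, Pde7a and Prkar2a), against 32.3% of all measurable genes. On the brightest probe set, both KA arrays were below both others for 8 members (Adcy2, Pde1b, Pde2a, Pde4d, Pde6d, Pde10a, Prkar1a and Prkar1b), against 28.7% of all genes. Other probe sets of Prkar1a, Pde4d and Pde1b did not give that order, and the count was 7 with the mean over the probe sets of a gene. Together these are 12 of 23, against 61% of all genes. Only Pde2a, lower, and Prkar2a, higher, were at least 1.5-fold apart the same way in both KA differences, 2 of 23 against 11.8% of all genes. KA minus PBS and KA+NAP minus NAP had opposite signs and lay at least 2-fold apart for 3 members (Adcy8, Prkaca and Prkar2b), against 2.31% of all genes. The lowest of the 4 values was on the KA+NAP array for 10 of the 23 members, against 26% of all genes, on the PBS array for 6 (29.8%), on the KA array for 5 (24.1%) and on the NAP array for 2 (20.1%). The highest was on the PBS array for 9 members, against 23.4% of all genes, on the NAP and KA+NAP arrays for 5 each (22% and 32.4%) and on the KA array for 4 (22.3%).

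The median size without regard to sign was 0.30 in KA+NAP minus KA, against 0.20 over all genes, and 0.18 in NAP minus PBS, against 0.16 over all genes. In KA+NAP minus KA, 14 of 23 members were below 0, against 4309 of all 9489 genes, and the members ranged from -1.06 for Adcy8 to 0.53 for Adcy2. In NAP minus PBS, 12 of 23 were below 0, against 4285 of all 9489 genes, and the range ran from -0.52 for Pde8a to 0.76 for Pde1a. At 1.5-fold, Adcy8 and Prkaca were lower in KA+NAP minus KA, 2 of 23 where 2.87% of all genes were, and 0 were higher, where 6.53% of all genes were, or 9.4% either way. Pde1a and Prkar2b were at least 1.5-fold higher in NAP minus PBS, 2 of 23 where 3.96% of all genes were, and 0 were lower, where 1.69% were, or 5.65% either way. The PKA catalytic genes stood on opposite sides in these comparisons: Prkaca was at -0.75 with KA present and 0.57 without, and Prkacb at -0.47 and 0.30. Opposite signs were common among the members, also in Adcy5, Adcy8, Pde1b, Pde4a and Pde8a among others. The share of all genes with opposite signs in these comparisons was not computed, so this is no trait of the PKA genes. The second probe set of Prkacb lay on the same sides as its brightest, at -0.70 and 0.38. On their brightest probe sets, the 5 measurable dual-specificity phosphodiesterases lay between -0.30 and -0.11 in KA+NAP minus KA. The second probe set of Pde10a was at -0.42, and the dim second set of Pde1b went the other way, with 4 after KA and 30 after KA+NAP.

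**Figure D4:**
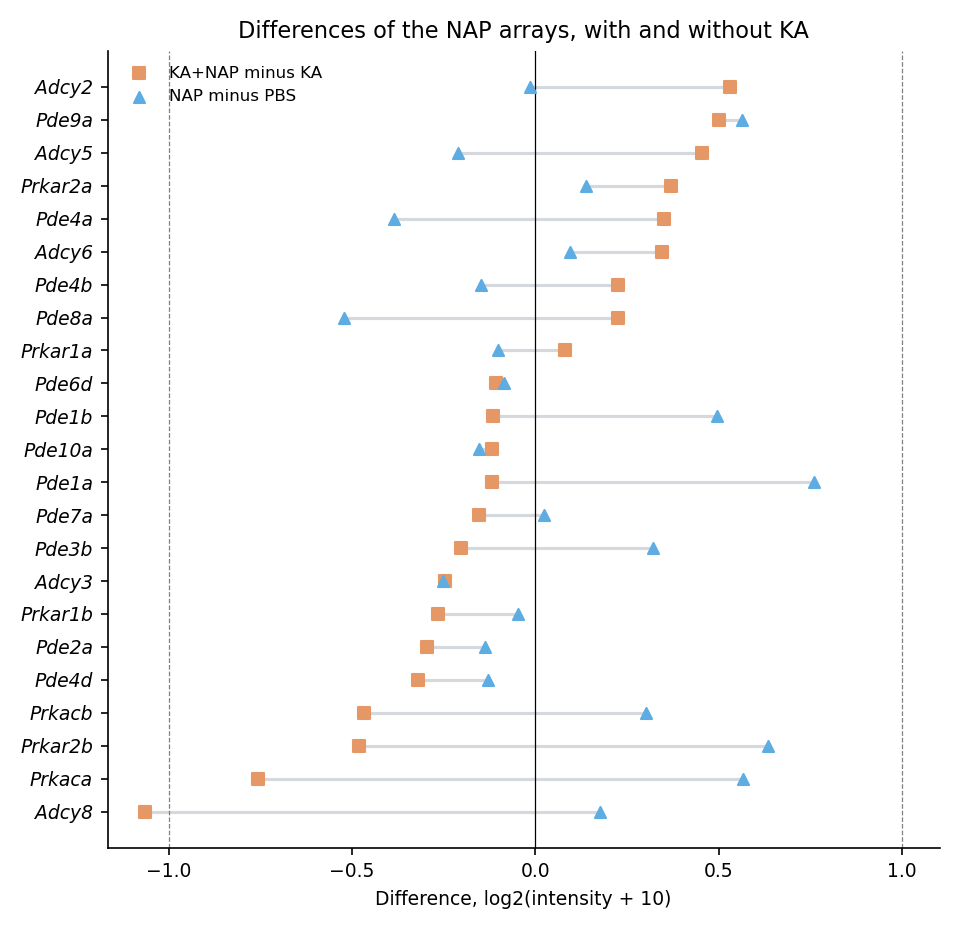
Differences in log2(intensity + 10) for each of the 23 measurable members: KA+NAP minus KA as squares and NAP minus PBS as triangles, sorted by KA+NAP minus KA, with dashed lines at 2-fold. Adcy8 at -1.06 is the 1 point past a dashed line. The squares and triangles of Prkaca, Prkacb and Prkar2b lie on opposite sides of 0, as do those of many other members.

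The other genes of the pathway were read from 8 lists of receptors, G proteins, anchors, inhibitors, effectors and targets. They hold 81 genes, of which 75 were on the array and 59 were measurable. Each is given on its brightest probe set alone. Among those named below, Arpp21 and Crem had 3 measurable probe sets and Pkib and Nr4a3 had 2. The values of the other sets are not given here. Of the 59, 7 lay at least 2-fold above PBS on the KA array and 6 that far below. For KA+NAP minus NAP the counts were 5 higher and 4 lower, and in KA+NAP minus KA 1 was higher and 3 lower, and in NAP minus PBS 0 were 2-fold apart. Their median was -0.03 in KA minus PBS and -0.06 in KA+NAP minus NAP. The shares of all genes given above for each comparison apply to these counts too.

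Upstream of the cyclases, the receptor gene Adcyap1r1, whose product binds PACAP and raises cAMP, was at 346 after KA and 407 after KA+NAP, against 981 after NAP and 795 after PBS. It was the 1 of 6 measurable receptors coupled to the stimulatory G protein that was at least 2-fold lower in both KA differences, and these receptors had a median of -0.11 in KA minus PBS and -0.67 in KA+NAP minus NAP. The dopamine receptor gene Drd1 had 88 after KA and 38 after KA+NAP, against 70 after NAP and 88 after PBS, lowest on the KA+NAP array. None of the 6 G protein alpha subunit genes reached 2-fold in any comparison. Their medians were -0.29 in KA minus PBS and -0.31 in KA+NAP minus NAP, and Gnas, the stimulatory subunit, differed by -0.03 and -0.31.

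Downstream, 2 anchoring protein genes differed by over 2-fold in both KA differences, in opposite directions. Akap5, which tethers PKA and calcineurin at the postsynaptic membrane, was at 43 on the KA array and 61 on the KA+NAP array, against 173 on the NAP array and 210 on the PBS array. It lay 2.05 lower in KA minus PBS and 1.37 lower in KA+NAP minus NAP. Akap12 (gravin), a scaffold for PKA and protein kinase C, was at 621 after KA and 990 after KA+NAP, against 396 after NAP and 222 after PBS, with differences of 1.44 and 1.30. The PKA inhibitor gene Pkib was at 154 and 131 on the KA and KA+NAP arrays, against 434 and 228 on the NAP and PBS arrays, which gave -1.65 in KA+NAP minus NAP and -0.54 in KA minus PBS. The remaining 10 of the 13 genes of this list did not reach 2-fold in either KA difference, and the list's medians were 0.07 and -0.01.

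Among CREB factors, the coactivator gene Crtc1 had 84 and 97 on the KA and KA+NAP arrays, against 177 and 184 on the NAP and PBS arrays. It was the 1 of 8 at 2-fold in KA minus PBS, at -1.05, and stood at -0.81 in KA+NAP minus NAP. Crem, which encodes the inducible cAMP early repressor among its products and is named here after its values were seen, had 798 and 732, against 446 and 424. Of 16 measurable CREB target genes, 5 lay 2-fold or more above PBS on the KA array (Fos, Gem, Nfil3, Vgf and Bdnf) and 2 below (Nr4a3 and Nr4a2), where 4.91% and 2.39% of all genes did. Between KA+NAP and NAP, 4 were higher (Fos, Vgf, Crh and Fosb) and 1 lower (Nr4a3), where 5.66% and 2.41% of all genes were. The list's medians were 0.34 and 0.39. Gem, a small GTPase that restrains calcium channels, had 148 after KA and 94 after KA+NAP, against 50 after NAP and 36 after PBS. Vgf, a neuronal secreted precursor, had 1161 and 956, against 326 and 460. These genes answer to other signals besides cAMP.

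Of the listed genes whose products PKA phosphorylates, Ppp1r1b was at 68 after KA and 121 after KA+NAP, against 232 after NAP and 261 after PBS. Its KA minus PBS difference was -1.80. Arpp21 was at 2795 after KA and 1256 after KA+NAP, against 1366 after NAP and 1007 after PBS, high on the KA array alone. Its differences were 1.46 in KA minus PBS, -0.12 in KA+NAP minus NAP and -1.15 in KA+NAP minus KA. The other cAMP effectors (3 measurable of 6 on the array) and the guanylyl cyclases and cGMP kinases (3 of 8) had 0 genes at 2-fold in any comparison, with medians of -0.22 and -0.23 in KA minus PBS.

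**Figure D5:**
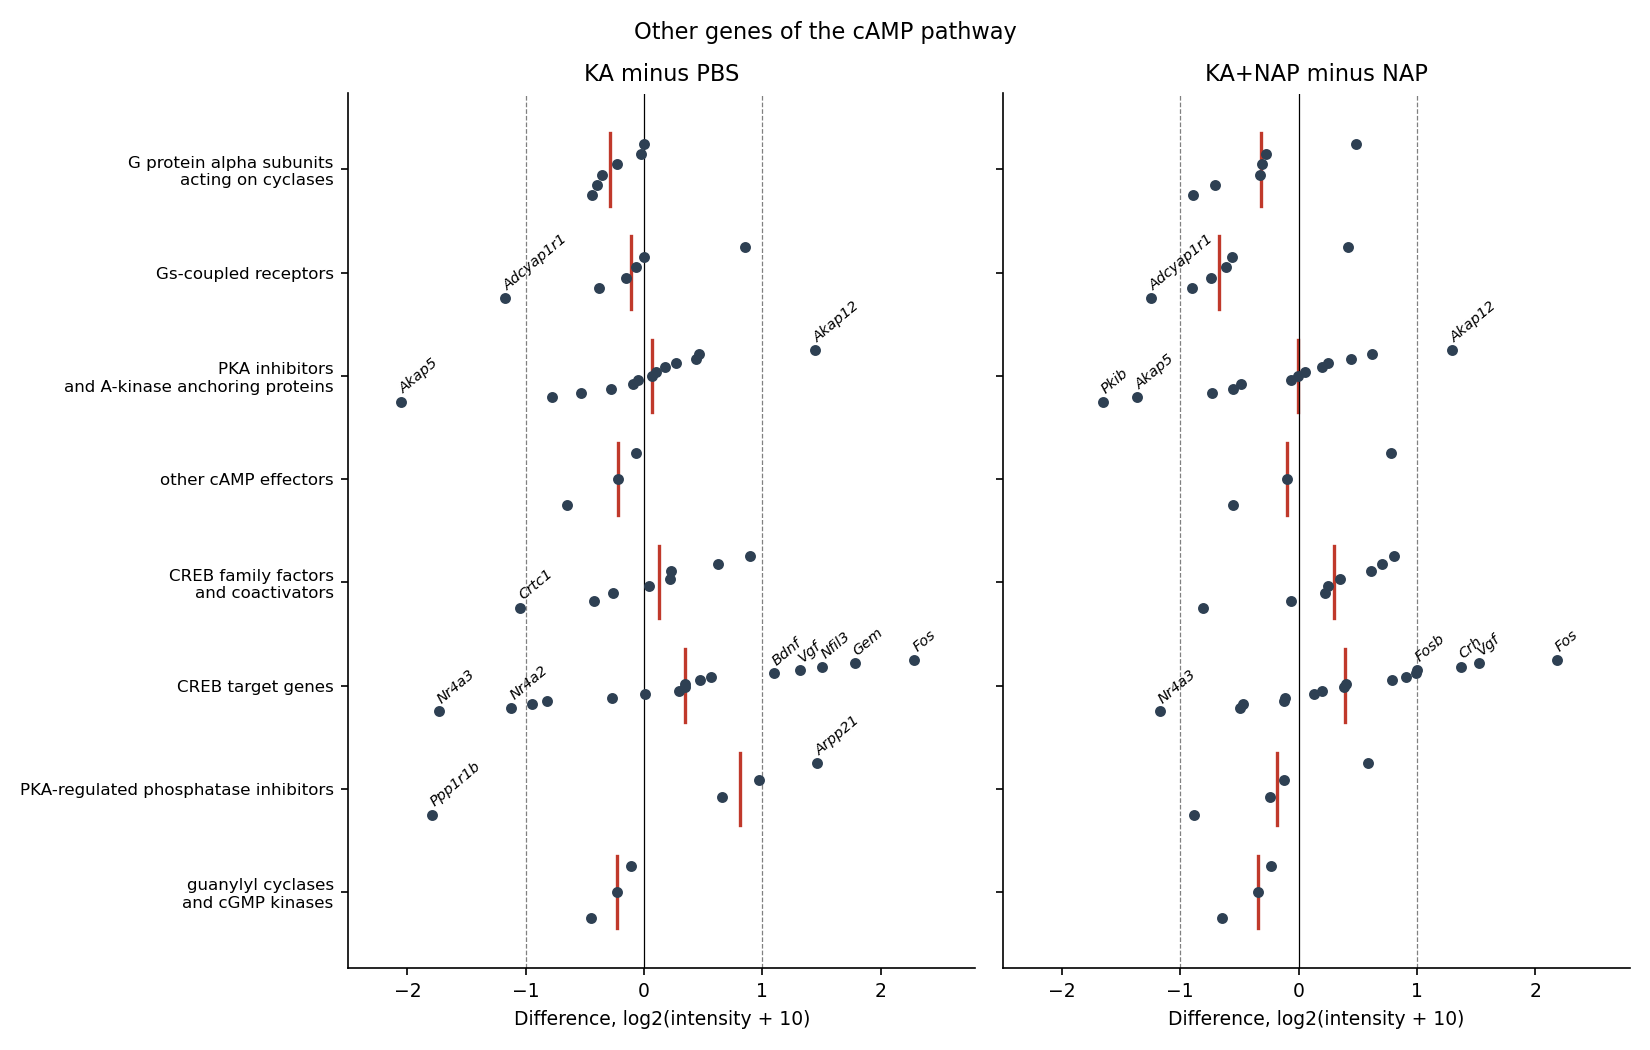
Differences in log2(intensity + 10) of the 59 measurable pathway genes in 8 lists, for KA minus PBS (left) and KA+NAP minus NAP (right); each point is 1 gene, red bars are list medians, dashed lines mark 2-fold and genes past them are named. Akap5 (-2.05 and -1.37) and Akap12 (1.44 and 1.30) lie at opposite ends of the anchoring list in both panels.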

How the data were processed

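RNA of 4 rat hippocampal samples, 1 per group, was labelled by the 2-cycle protocol from 500 ng of total RNA, per the labels' protocols. The deposited values are linear MAS5 intensities per the submitters' processing notes, with no version or detection calls in the sources used here. The 2% trimmed mean was 250.1 on every array, and that scaling, made by the authors, was kept. Of 31099 probe sets, 20832 had 1 symbol in the platform annotation, 436 had several and were not named, and 57 were controls; 20764 of the single symbols matched the GRCr8 gene table. The brightest probe set stood for each of 14217 genes, and 9489 had a mean above 62.75. Python 3.11.15, numpy 2.4.6 and pandas 2.3.3 were used, and the code was tested on simulated data. The pseudocount of 10 understates fold differences of dim genes.

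With 1 array per group, nothing was tested and the number of arrays limits the precision. The members, the 8 pathway and 15 marker lists, and the settings were chosen with earlier results of these data known. Members past the intensity limit and at least 1.5-fold apart between KA and PBS, KA+NAP and NAP, KA+NAP and KA, or NAP and PBS were given in full, with others in shorter form. Pathway genes were named at 2-fold. Alternatives changed the pseudocount, the intensity limit, the scaling, the probe set rule and, added after the data were seen, the baseline array. Coordinates are those of the RefSeq promoter table alone. Protein sequences were not used here.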

Additional observations from a re-analysis of the deposited data

Results flagged for a closer look

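In 3 members the KA difference had opposite signs without and with NAP, and the differences were at least 2-fold apart. The minimum size was chosen after the data were seen, and with 1 array per group the contrast between the differences was not tested. Among all measurable genes 2.31% met the same condition (219 of 9489). For Prkaca, KA+NAP minus NAP was -1.04 and KA minus PBS was 0.28, a contrast of -1.32. For Adcy8 they were -1.12 and 0.12, a contrast of -1.24, and the low KA+NAP intensity of 46 lies under the limit of 62.75. For Prkar2b they were -0.22 and 0.89, a contrast of -1.11. Each contrast uses all 4 arrays, and each of these genes has 1 probe set.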

How the results depend on the processing

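With so few members at 2-fold, their counts moved with the settings. A pseudocount of 50 left 0 members higher in KA minus PBS, and 0 lower in KA+NAP minus NAP, in KA+NAP minus KA and in KA+NAP minus PBS. A limit at the 75th percentile left 0 higher in KA minus PBS and 0 lower in KA+NAP minus NAP and in KA+NAP minus KA, gave a median of -0.29 in KA+NAP minus PBS, and left 2 members with both KA arrays above both others. These settings damp or drop dim genes by construction. With no limit, which lets the dim members in, 3 were higher and 2 lower in KA minus PBS, 2 higher in KA+NAP minus NAP (median -0.071), 1 higher and 2 lower in KA+NAP minus KA, 2 lower in NAP minus PBS, and 1 higher and 2 lower in KA+NAP minus PBS. In KA+NAP minus PBS, a pseudocount of 1 gave 1 higher and 2 lower, quantile normalization and centring on array medians each gave 2 lower, and the mean over probe sets gave a median of -0.085. With the NAP array as baseline 0 were higher in KA minus PBS. With the PBS array as baseline 1 was lower in KA+NAP minus NAP. That member was Pde2a, at -1.03, while Adcy8 (-0.95) and Prkaca (-0.48) were then under 2-fold. Both baselines were chosen after the data were seen. Of 5 single differences at 2-fold among the members given in full, none changed sign under another pseudocount or scaling. They stayed at 2-fold in 26 of 31 values and were under it in 5, all at a pseudocount of 50. The 26 include values that could not move, since the limit alters no value and each of these genes has 1 probe set. Genes that the limit at the 75th percentile dropped are not among the 31, nor are values with another baseline array. No paired analysis was possible because each group has 1 array. Dim signal limits Adcy8, Pde4a and the 11 dim members most.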
